A study of Mus musculus with 12 samples.

Results

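The genes described here belong to the interferon-gamma (IFN-γ) response and were followed through sorted gut lymphocytes. They are the immunity-related GTPases (IRG) Irgm1, Irgm2, Igtp, Iigp1 and Tgtp1, the transcription factor Irf1, the receptor chains Ifngr1 and Ifngr2, and the inhibitor Socs1. The genes were chosen by name, with earlier results of these data known, from the 23284 genes of the FPKM table, and all 9 were among the 12502 genes that passed the filter on low values (at least 1 FPKM in at least 3 libraries). FPKM is the number of fragments per unit of transcript length and sequencing depth. The libraries were RNA-seq of group 3 innate lymphoid cells (ILC3s) sorted from the small intestine of HR-1 hairless mice at 18 weeks of age. One set of mice had been nursed by mothers on chow with added palmitic acid (PA milk), the other by mothers on normal diet (ND). ILC3s were taken separately from the intraepithelial layer (IEL) and the lamina propria (LP), which gave 4 groups of 3 libraries, PA IEL, PA LP, ND IEL and ND LP. Cells without lineage markers were sorted for Nrp1, CD25 and Thy1.2, and further for CD4 or CD45, on which the study's own descriptions of the gate differ. How many mice went into a library was not given in the sources used here, nor whether libraries of a group came from separate mice, so p-values measure only the spread between these libraries, which may be technical.

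IFN-γ binds a receptor built of Ifngr1 and Ifngr2, and the attached kinases JAK1 and JAK2 pass the signal to the nucleus, where it acts through GAS elements in DNA. Irf1 is induced in this way and binds interferon-stimulated response elements (ISRE), and it helps to switch on the IRG GTPases, which act against intracellular bacteria and parasites in mouse cells. Iigp1 and Tgtp1 are effector GTPases that load onto the vacuoles of invading parasites, while Irgm1, Irgm2 and Igtp are regulatory GTPases that sit on the cell's own membranes and hold the effectors inactive there. Socs1 is induced by the same pathway and blocks the JAK kinases. ILC3s are lymphocytes without antigen receptors that guard the gut barrier through IL-22.

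Promoter windows were examined because the IFN-γ signal and IRF1 reach these genes through short DNA elements. The promoter sequences were those of RefSeq on GRCm38.p6, from 250 bases before to 50 bases after the gene start. By symbol, 8 of the 9 genes matched, all but Iigp1. The windows were searched on both strands for GAS (TTCNNNGAA) and for ISRE (GAAA, any 2 bases, GAAA), where N stands for any base. GAS was present in 8.3% of 32851 promoters, ISRE in 3.44%, and both in 0.454%. The 5 windows below are those of the members that held a match outside annotated exons. They run 5′ to 3′ on the gene's strand, and the capitals mark the matches.
Igtp, chr11:58199491-58199551, plus strand: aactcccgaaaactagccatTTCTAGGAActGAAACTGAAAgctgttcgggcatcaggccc
Irgm2, chr11:58214882-58214942, plus strand: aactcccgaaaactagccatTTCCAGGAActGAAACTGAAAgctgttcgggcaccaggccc
Tgtp1, chr11:48992294-48992354, minus strand: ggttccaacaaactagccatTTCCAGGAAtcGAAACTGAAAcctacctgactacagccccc
Irf1, chr11:53769904-53769952, plus strand: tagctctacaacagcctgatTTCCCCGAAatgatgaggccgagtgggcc
Socs1, chr16:10785584-10785639, minus strand: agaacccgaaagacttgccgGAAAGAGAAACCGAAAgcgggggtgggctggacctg
In Igtp, Irgm2 and Tgtp1 a GAS match was followed by an ISRE match with 2 bases between them. This arrangement, looked for after these windows had been read, was present in 5 of 32851 promoters (0.0152%). The other two belonged to Tgtp2, a near-identical copy of Tgtp1, and to Gm12185, a further gene of the same chromosome. The printed Igtp and Irgm2 windows differ at few bases and Tgtp2 is a copy of Tgtp1, so these 5 promoters are not independent of each other. The Irf1 window held GAS alone, and Socs1 held 2 overlapping ISRE matches.

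Irgm1 also had 2 overlapping ISRE matches, the first starting 30 bases before its RefSeq start. They lay in an exon of a longer transcript in GENCODE vM21 and are not printed. The Irgm2 and Tgtp1 windows lay in introns of longer transcripts of their own genes, and the other 3 printed windows lay upstream of the gene model. No match was found in the windows of Ifngr1 and Ifngr2, which says only that these letters were not there. A match is a description of sequence, not a bound site. By GENCODE vM21 on GRCm38, 5 of the 9 genes lie on chromosome 11: Irgm1 at 48861968 to 48871683, Tgtp1 at 48985327 to 48994172, Irf1 at 53770014 to 53778374, Igtp at 58199556 to 58207591 and Irgm2 at 58199618 to 58222782. Socs1 and Ifngr2 lie on chromosome 16 and Ifngr1 on chromosome 10. The Igtp and Irgm2 models overlap on the same strand and share 162 exon bases. By these models, reads from this stretch cannot be assigned to one of them. The RefSeq window of Irgm2 lies past the end of the Igtp model. Which gene models the authors used for the FPKM values is not known here. Tgtp1 and Tgtp2 were identical at 99.3% of 2823 aligned transcript bases, and how the authors' counting split reads between them is uncertain.

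Before the results, 3 features of the libraries need to be set out. The reads worked out from the scaled counts came to between about 8756000 and 14581000 per library. The number of genes at 1 FPKM or more was 4390 in PA IEL replicate 2 and 5637 in PA LP replicate 2, against 7863 to 11378 in the other libraries. Of 14 ILC3 genes, 1 to 13 were at 1 FPKM or more in the PA IEL libraries, 5 to 14 in ND IEL, 3 to 11 in PA LP and 10 to 14 in ND LP. Of the genes behind the gate, Thy1 was below 1 FPKM in 5 libraries, Il2ra (CD25) in 4 and Nrp1 in 2. The ILC3 label was therefore not borne out evenly by these genes, and the groups are called by their labels only.

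RNA of other cell types was present and differed between the groups. Over 15 epithelial markers the summed level was 0.68 to 6.89% of all FPKM in PA IEL and 3.45 to 10.6% in ND IEL. It was 0.0505 to 0.251% in PA LP and 0.378 to 0.862% in ND LP. Over the 14 ILC3 genes it was 0.0421 to 0.333% in PA IEL, 0.0333 to 0.0839% in ND IEL, 0.014 to 0.0542% in PA LP and 0.106 to 0.755% in ND LP. Markers of T cells (10 genes in the table) reached at most 0.07%, those of NK cells and ILC1s (10 genes) 0.16%, those of macrophages and dendritic cells (10 genes) 1.56%, and those of B and plasma cells (7 genes) 2.99%.

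Endothelial RNA split the LP libraries in the way that most of the 9 genes did. The list of 12 endothelial genes was drawn up after the values had been seen, because several of the genes most like the GTPases are known from vessels. Summed over the list, the level was 6164, 1.455 and 7270 FPKM in PA LP replicates 1, 2 and 3, and 1551, 4383 and 2179 FPKM in ND LP. In the 6 IEL libraries it lay between 21.3 and 75.4 FPKM. Plvap, a protein of the diaphragms of capillary endothelium, was at 4504, 1.01 and 4458 FPKM in PA LP, at 1158, 2633 and 1455 FPKM in ND LP, and at 0.570 to 11.1 FPKM in IEL. All 12 genes of the list were at 1 FPKM or more in PA LP replicates 1 and 3, 11 or 12 in ND LP, 1 in PA LP replicate 2, and 2 to 5 in IEL. Vwf and Emcn were below 0.02 FPKM in every IEL library and listed at 0 in PA LP replicate 2. Nrp1, one of the antigens of the gate, is also carried by endothelial cells. Fibroblast markers (7 genes, also listed after the values were seen) took 0.308% at most in PA LP, 0.118% in ND LP and no more than 0.000699% in IEL.

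Among the regulatory GTPases, Irgm1 was above 1 FPKM in 11 of 12 libraries. In IEL it was measured at 18.1, 0.0360 and 21.8 FPKM in PA replicates 1, 2 and 3 and at 30.2, 16.6 and 16.1 FPKM in ND. In LP it was at 179, 45.5 and 189 FPKM in PA and at 96.6, 86.1 and 29.9 FPKM in ND. The layers overlapped only between the highest IEL library and the lowest LP library. Averaged over the diets, the fitted difference IEL minus LP on the log2(FPKM + 1) scale was −2.77 ± 0.82 (SE) and did not pass the threshold (limma, adjusted p = 0.127). In LP, PA replicates 1 and 3 lay above all ND libraries and replicate 2 inside their range. The fitted PA minus ND difference was 0.87 ± 1.16 in LP and −1.46 ± 1.16 in IEL.

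Igtp, also known as Irgm3, had IEL levels of 66.03, 0.0401 and 25.7 FPKM in PA and 31.95, 91.4 and 44.9 FPKM in ND. Its LP levels were 214, 13.7 and 240 FPKM in PA and 35.9, 70.5 and 46.2 FPKM in ND. The Igtp and Irgm1 values of PA IEL replicate 2 came from 1 read each, under the level that 3 reads give. The ND LP values of Igtp lay within the range of ND IEL, and the high values of LP came from PA replicates 1 and 3 alone. Irgm2 was lower throughout, at 0.0309, 0 and 11.7 FPKM in PA IEL and 8.92, 0 and 8.50 FPKM in ND IEL. Its LP values were 58.9, 0.0276 and 71.3 FPKM in PA and 7.46, 17.2 and 1.95 FPKM in ND. In 4 of 12 libraries Irgm2 was at or under the level that 3 reads give (0.0584 to 0.0928 FPKM), so it was not detectable there at this depth. The difference IEL minus LP was −1.42 ± 0.97 for Igtp (limma, adjusted p = 0.6001) and −1.78 ± 1.19 for Irgm2 (limma, adjusted p = 0.591). For PA minus ND in LP it was 0.87 ± 1.37 for Igtp and 1.099 ± 1.69 for Irgm2. The study presented Irgm2 and Igtp among genes of LP ILC3s from these same libraries, so their direction here is no independent evidence.

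Iigp1, an effector GTPase also called Irga6, had the largest difference between the layers of the 9 genes. In PA IEL it was at 0.150, 0.0533 and 0.116 FPKM and in ND IEL at 2.50, 16.2 and 2.42 FPKM. In LP it was at 539, 27.9 and 585 FPKM in PA and at 369, 242 and 59.4 FPKM in ND. All 6 LP libraries lay above all 6 IEL libraries. The PA IEL values came from 4, 3 and 4 reads. The difference IEL minus LP was −6.23 ± 0.88 on the log2(FPKM + 1) scale, and Iigp1 was the only member that passed (limma, adjusted p = 0.0033). In IEL the 3 PA libraries lay below the 3 ND libraries, with a difference of −2.42 ± 1.25 that did not pass (limma, adjusted p = 0.947). In LP, PA minus ND was 0.25 ± 1.25 (−0.17 with upper-quartile scaling), with PA replicate 2 lowest and replicates 1 and 3 highest of the 6.

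Tgtp1, the other effector, was close to the detection limit in IEL. It was at 2.201, 0.0280 and 0 FPKM in PA IEL and at 1.78, 0 and 1.597 FPKM in ND IEL. LP values were 49.7, 8.06 and 50.5 FPKM in PA and 3.66, 21.1 and 10.03 FPKM in ND. Here too every LP library lay above every IEL library, and the difference of −3.35 ± 0.84 came close to the threshold without passing it (limma, adjusted p = 0.0671). With its copy Tgtp2 added, the difference was −2.83 ± 0.78 (limma, adjusted p = 0.0958). Of the 12502 genes tested, 0.608% had all 6 LP above all 6 IEL libraries, and among the 9 genes Iigp1 and Tgtp1 did so.

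**Figure D1:**
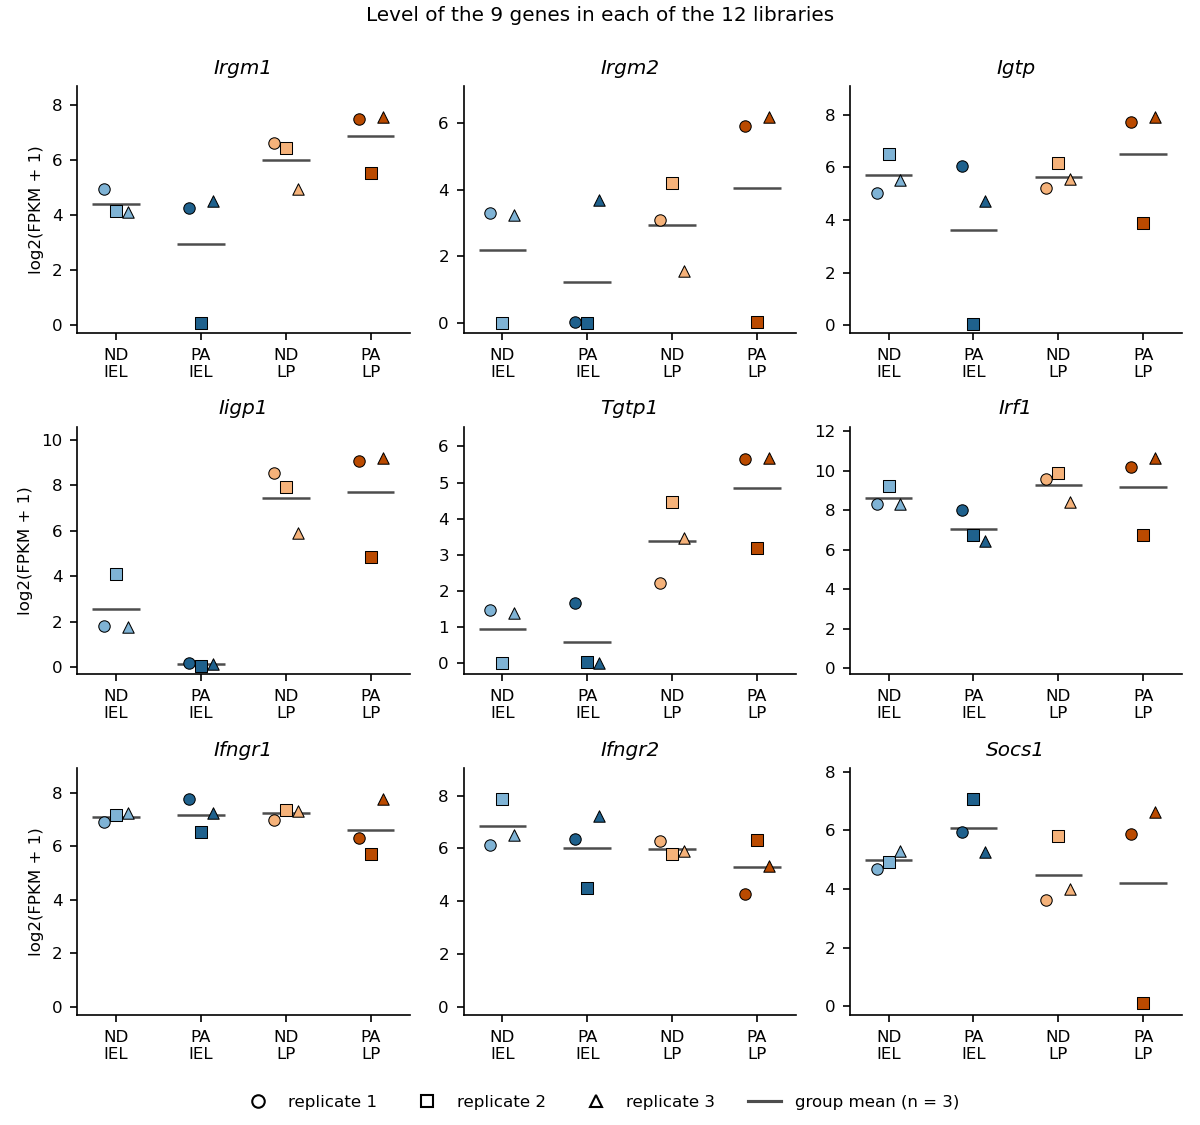
Level of each of the 9 genes, as log2(FPKM + 1) on the vertical axis, in the 12 libraries by group. Symbols mark the replicates and horizontal lines the mean of the 3 libraries. Iigp1 and Tgtp1 separate the layers, while Ifngr1 lies between 51.7 and 217 FPKM in every library. PA LP replicate 2 (dark square) falls under replicates 1 and 3 for 8 of the genes, all but Ifngr2.

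Irf1, the transcription factor that acts between the receptor and the GTPases, had the highest median level of the 9 in either layer. In IEL it was at 260, 106 and 84.8 FPKM in PA and at 318, 608 and 316 FPKM in ND. LP libraries had 1174, 107 and 1576 FPKM in PA and 761, 942 and 341 FPKM in ND. In IEL all PA libraries were below all ND libraries, with a difference of −1.56 ± 0.80 (limma, adjusted p = 0.947). In LP the PA libraries fell on both sides of ND, and the difference was −0.10 ± 0.80 (0.26 after scaling on leukocyte genes). Between the layers it was −1.40 ± 0.57 (limma, adjusted p = 0.287).

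The receptor chains did not share the pattern of the GTPases. Ifngr1, the ligand-binding chain, was at 216, 90.9 and 152 FPKM in PA IEL and at 120, 144 and 150 FPKM in ND IEL. LP levels were 78.3, 51.7 and 217 FPKM in PA and 127, 164 and 161 FPKM in ND. The groups overlapped in every comparison, and the difference IEL minus LP was 0.23 ± 0.45. Ifngr2, the signalling chain, was at 81.1, 21.96 and 147 FPKM in PA IEL and at 69.0, 232 and 90.8 FPKM in ND IEL. In LP it was at 18.3, 79.6 and 38.9 FPKM in PA and at 76.1, 53.8 and 58.1 FPKM in ND. PA LP replicates 1 and 3, the highest of the LP libraries for all 5 GTPases, were the lowest for Ifngr2. The difference IEL minus LP was 0.79 ± 0.61, and PA minus ND was −0.81 ± 0.86 in IEL and −0.67 ± 0.86 in LP.

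Socs1, the feedback inhibitor, was at 60.3, 134 and 37.2 FPKM in PA IEL and at 25.0, 29.7 and 38.3 FPKM in ND IEL. The LP values were 58.3, 0.0902 and 98.8 FPKM in PA and 11.5, 54.7 and 14.9 FPKM in ND. PA LP replicate 2 was under the level that 3 reads give, and the other 2 PA LP libraries were above all of ND LP. In IEL the PA and ND libraries overlapped at a single value each. PA minus ND was 1.11 ± 1.38 in IEL and −0.26 ± 1.38 in LP (0.0250 after scaling on leukocyte genes), and IEL minus LP was 1.18 ± 0.97 (limma, adjusted p = 0.696).

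Taken as a list in the comparison of PA milk with ND, the 9 genes gave no call in either layer. In IEL, limma called 0% of the 12502 genes tested, 447 genes had an unadjusted p under 0.05, and limma-voom on the worked-out reads called 0. None of the 9 genes had an unadjusted p under 0.05 in IEL, 2 of 9 were higher in PA (1 under either other scaling) against 38.0% of all genes, and the median difference was −0.95 against −0.30 over all genes. Without PA IEL replicate 2, Irgm1 was at −0.02, Igtp at −0.30 and Iigp1 at −2.38, against −1.46, −2.08 and −2.42 with it. The median over all genes was then 0.0014. In LP, limma likewise called 0%, with 588 genes at an unadjusted p under 0.05 and 3 calls by limma-voom, none of them a member. There 5 of 9 were higher in PA against 37.4% of all genes, with a median of 0.25 against −0.36 over all genes. The difference of the PA milk effect between the layers (LP minus IEL) was called for 0% of the genes, with 292 at an unadjusted p under 0.05 and 0 calls by limma-voom. It was above 0 for 7 of 9 members, all but Ifngr1 and Socs1, and for 49.2% of all genes, with a median of 1.84 against −0.03 over all genes.

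The order of the libraries was counted next. In IEL, PA lay wholly above ND for 2.97% of all genes and for none of the 9, and wholly below for 5.22% of all genes and for Iigp1 and Irf1. In LP, PA lay wholly above ND for 2.97% of all genes and wholly below for 6.6%, and no member did either. PA LP replicates 1 and 3 lay above all 3 ND LP libraries for 7 of 9 members, all but the receptor chains, and for 11.7% of all genes. This order was looked for after the values had been seen. PA LP replicate 2 was at the same time below all of ND LP for Irgm2, Igtp, Iigp1, Irf1 and Socs1, and for 5.68% of all genes. With 3 libraries against 3, an exact permutation test cannot give a p below 0.1.

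Between the layers, limma called 110 genes (0.88%) averaged over the diets, 52 of them lower in IEL (0.416%). The 9 genes held 1 call, Iigp1, and 4 had an unadjusted p under 0.05, as did 1681 of all genes (13.4%). Of the 9, 6 were lower in IEL against 53.4% of all genes, with a median difference of −1.42 against −0.08 over all genes. Iigp1 stayed called with any 1 library left out (limma, adjusted p = 0.00012 to 0.0163), while the calls of other members depended on which libraries entered. Without PA LP replicate 2, Iigp1, Tgtp1 and Irf1 were called, with differences of −6.94 ± 0.71, −3.77 ± 0.76 and −2.01 ± 0.38 (limma, adjusted p = 0.00012, 0.0132 and 0.0083), and 521 genes in all. Without both libraries that had the fewest genes, PA IEL replicate 2 and PA LP replicate 2, Irgm1 was called as well (−2.38 ± 0.43, limma, adjusted p = 0.0075), and 826 genes in all. With limma-voom the Iigp1 call was lost (−8.34 ± 4.66, adjusted p = 0.501).

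**Figure D2:**
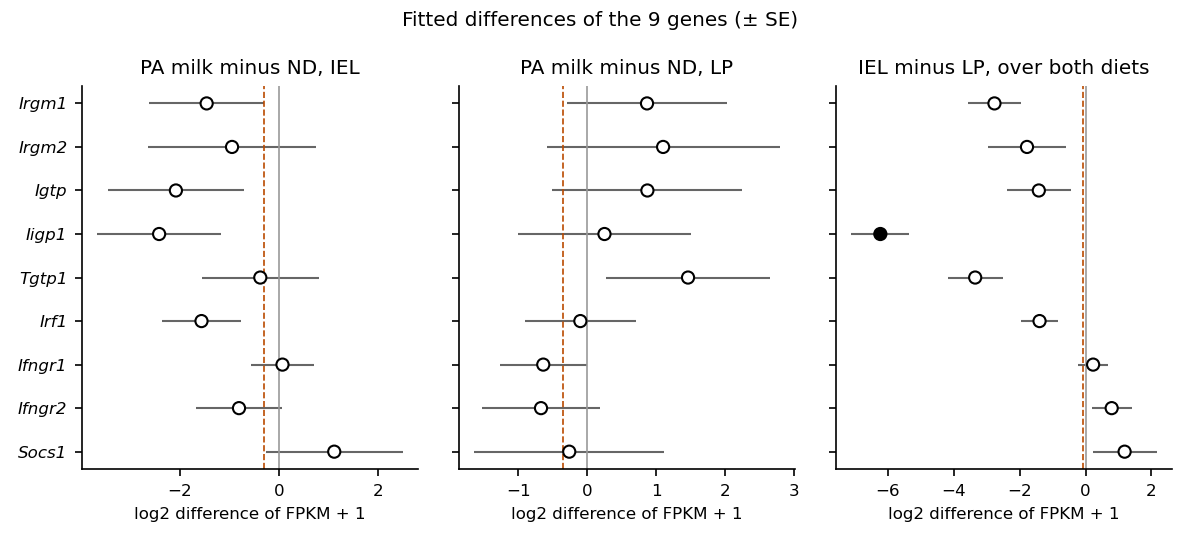
Fitted differences of the 9 genes on the log2(FPKM + 1) scale (horizontal axis, each panel with its own range), with bars of 1 SE. The filled point marks the call at an adjusted p under 0.05, grey lines mark 0 and dashed lines the median of all 12502 genes. Iigp1 at −6.23 between the layers is the single call.

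Endothelial marker RNA moved with 8 of the 9 genes in LP, and with mixed signs in IEL. Over the 6 LP libraries, Igtp and Socs1 had the same order as the summed endothelial level (Spearman's rho = 1 for both). For Irgm2, Tgtp1 and Irf1 rho was 0.943, for Iigp1 0.829, for Irgm1 0.714 and for Ifngr1 0.657, and for Ifngr2 it was −0.943. Over the 6 IEL libraries, where the summed level was low throughout, rho was −0.638 for Irgm2, −0.314 for Irgm1, −0.143 for Iigp1, −0.0857 for Irf1 and −0.029 for Tgtp1. It was 0.2 for Ifngr2, 0.371 for Ifngr1, 0.429 for Igtp and 0.486 for Socs1. The mean of the 5 GTPases had a rho of 0.943 in LP, −0.714 in IEL and 0.636 over all 12 libraries, and with the summed fibroblast markers 0.429, −0.657 and 0.678. With the summed epithelial markers the rho of this mean was −0.6 in LP, 0.486 in IEL and −0.72 over all 12 libraries. Over the 12 libraries, endothelial RNA was thus not the only marker sum that went with the GTPases. These values describe libraries that also share depth, and carry no test. The endothelial list was prompted by genes that resembled the GTPases in these same libraries. A high rho with it was therefore in part built in. PA LP replicate 2 had the lowest endothelial level of all 12 libraries. It had more Iigp1 (27.9 FPKM), Irgm1 (45.5 FPKM) and Tgtp1 (8.06 FPKM) than any IEL library. The highest IEL values of these genes were 16.2, 30.2 and 2.201 FPKM. In PA LP replicate 2, Igtp, Irgm2 and Irf1 lay within the range of IEL, and Socs1 lay below it. In whole libraries, fewer cells of a type and less RNA per cell cannot be told apart.

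With the summed endothelial level as a covariate, a fit added after the values had been seen, Iigp1 remained called between the layers (−4.48 ± 0.84, limma, adjusted p = 0.0161). Irgm1 was at −1.99 ± 0.995 and Tgtp1 at −2.33 ± 0.93, and neither passed. Irgm2, Igtp and Irf1 changed sign, to 0.43 ± 1.27, 0.26 ± 1.08 and 0.11 ± 0.42, and none passed. Socs1 was then called as higher in IEL (3.66 ± 0.72, limma, adjusted p = 0.0196). Since 5 of 6 LP libraries were high in endothelial RNA and all of IEL was low, this fit leans on PA LP replicate 2, and layer and endothelial RNA cannot be fully told apart. The part of endothelial, fibroblast and epithelial RNA in the levels of the 9 genes was not tested otherwise.

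**Figure D3:**
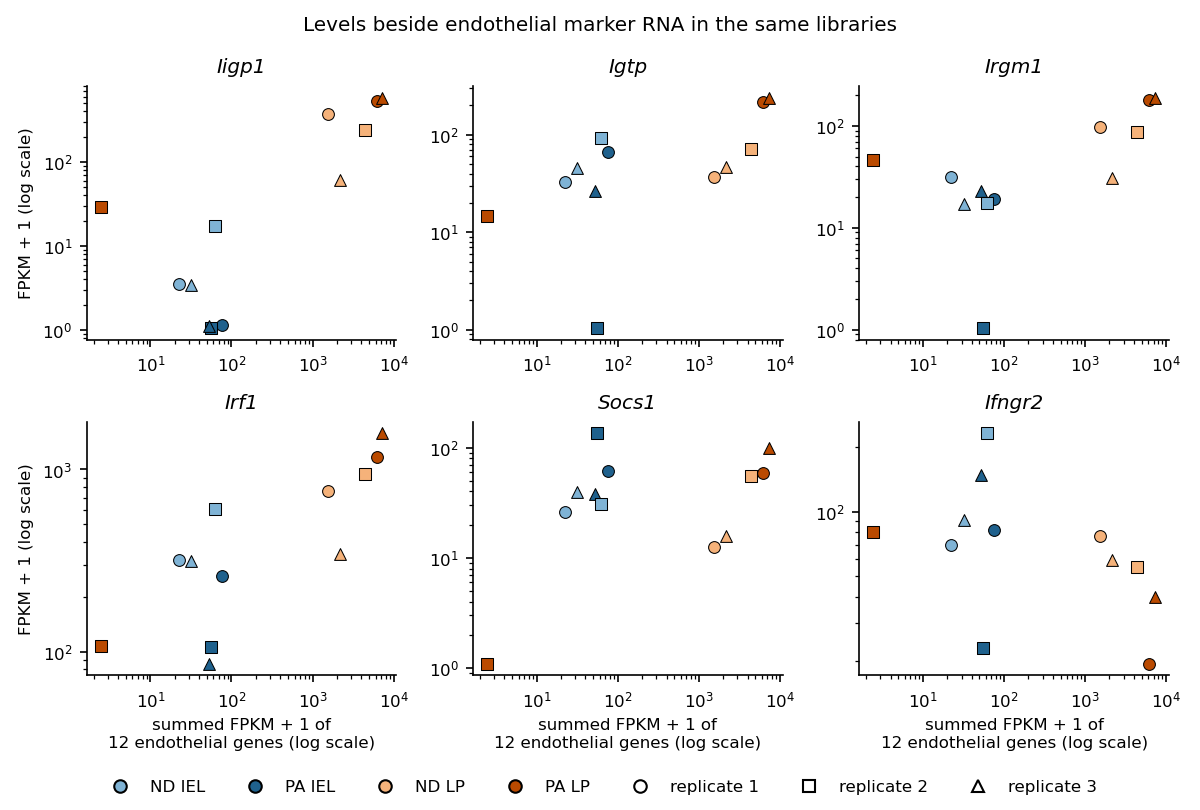
FPKM + 1 of 6 of the genes (vertical axis, log scale) against the summed FPKM + 1 of 12 endothelial marker genes (horizontal axis, log scale), 1 point per library. The 5 LP libraries with endothelial sums of 1551 to 7270 FPKM lie to the right. The IEL libraries at 21.3 to 75.4 FPKM lie in the middle. PA LP replicate 2 lies on the left at 1.455 FPKM. There Iigp1 and Irgm1 were above IEL, Igtp and Irf1 within its range and Socs1 below it.

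The 5 GTPases varied together over the 12 libraries. Spearman's rho between pairs of them ranged from 0.455 to 0.888, with a median of 0.614 over 10 pairs. Irf1 followed them, at 0.553 to 0.902. Ifngr1 (0.0559 to 0.503) and Socs1 (−0.147 to 0.329) followed them less, and Ifngr2 ran the other way (−0.683 to −0.189). The mean of the 5 had a rho of 0.427 with the number of genes seen in a library. All of these values describe 12 libraries that share depth and number of genes seen. The 10 genes most like that mean, out of all others tested, were Hspa1b, Ndrg1, Ppp2r5a, Sgms1, Fbln5, C1qtnf9, Cd2, Lepr, Sncg and Rasip1, with rho from 0.928 to 0.965. Rasip1, a regulator of vessel formation, was at 88.5, 0.0310 and 146 FPKM in PA LP and at 49.95, 106 and 18.7 FPKM in ND LP, and below 2.2 FPKM in IEL. Fbln5 encodes an elastic-fibre protein, and Hspa1b a heat-shock chaperone. Cd2, a surface protein of lymphocytes, was at 45.6, 0.0974 and 150 FPKM in PA LP and at 74.3, 38.7 and 35.8 FPKM in ND LP. In IEL it was at most at 14.5 FPKM. The 10 genes were thus not all genes of vessels.

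The other genes of the pathway came from lists of known members. Of 7 further IRG genes tested, all 7 were lower in IEL than in LP (53.4% of all genes), with a median of −1.82. None passed the threshold (3 had an unadjusted p under 0.05, against 13.4% of all genes). One of them, F830016B08Rik, was at 1 FPKM or more only in LP libraries, so the filter fixed its direction. Another, Tgtp2, is the near-identical copy of Tgtp1, so it adds little of its own. Ifi47, a GTPase of the same family, was at 69.7, 0 and 39.8 FPKM in PA IEL and 65.7, 71.8 and 68.1 FPKM in ND IEL. In LP it was at 495, 252 and 537 FPKM in PA and at 111, 238 and 66.9 FPKM in ND, so that all 3 PA LP libraries lay above ND LP. Its PA minus ND difference in LP was 1.74 ± 1.18 (limma, adjusted p = 0.979), the largest of that list. In LP, 6 of the 7 were higher in PA, against 37.4% of all genes, with a median of 0.87.

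The guanylate-binding proteins, a second family of interferon-induced GTPases, differed more between the layers than between the diets in their medians. Of 9 tested, 8 were lower in IEL (53.4% of all genes), with a median of −3.01, none called and 6 at an unadjusted p under 0.05 (13.4% of all genes). Gbp4 was at 232, 0.107 and 452 FPKM in PA LP and 89.2, 122 and 74.7 FPKM in ND LP, the same split among the PA libraries as for Igtp. In LP, 1 of 9 was higher in PA, with a median of −0.34. Gbp7 and Gbp9 and, of the next list, Cxcl10 were also shown by the study from these libraries.

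Among 26 other IFN-γ targets tested, 15 were lower in IEL, near the 53.4% of all genes, with a median of −0.25, and 1 was called. That was Serping1, the C1 complement inhibitor, with a difference of −6.09 ± 1.32 (limma, adjusted p = 0.0393). It was at 473, 0 and 531 FPKM in PA LP and at 30.9, 109 and 267 FPKM in ND LP. In IEL it was at most at 0.805 FPKM, so it passed the filter on low values only through LP. PA LP replicate 2 was again at the other end from replicates 1 and 3. Cxcl10, a chemokine for T cells, was at 801, 0 and 662 FPKM in PA LP and 132, 153 and 58.3 FPKM in ND LP. It was at most at 2.89 FPKM in IEL (−5.92 ± 1.34, limma, adjusted p = 0.0508). In contrast, the immunoproteasome subunit Psmb8 lay between 231 and 720 FPKM in every library.

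**Figure D4:**
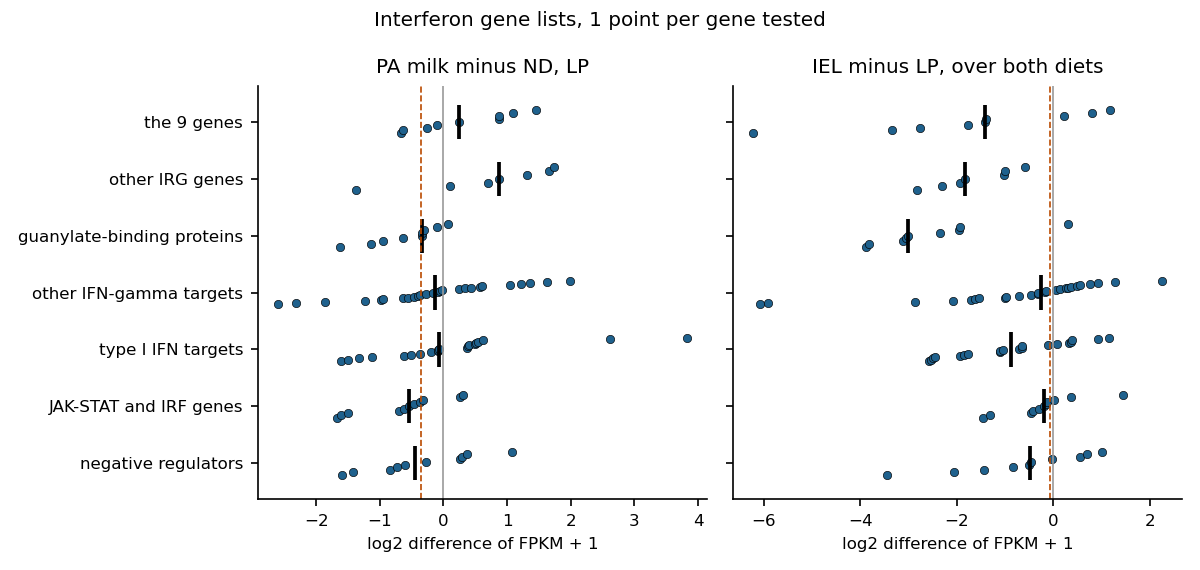
Fitted differences of the genes in 7 lists on the log2(FPKM + 1) scale (horizontal axis), 1 point per gene tested and a black bar at each list's median, for PA minus ND in LP and for IEL minus LP. Dashed lines mark the median of all genes. The guanylate-binding proteins (median −3.01) and the other IRG genes (−1.82) lie lowest between the layers, and the type I interferon targets reach 3.82 in LP.

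Genes that carry or restrain the signal held no call. Over all genes, 53.4% were lower in IEL and 37.4% were higher in PA in LP. Of 11 genes for kinases, transcription factors, cofactors and a phosphatase of the pathway, 8 were lower in IEL than in LP (median −0.19) and 9 lower in PA LP than in ND LP (median −0.55). Jak1, a kinase of the receptor, was at 0.0572 FPKM in PA IEL replicate 2 and 0.0895 FPKM in PA LP replicate 2, and between 6.13 and 175 FPKM in the other 10 libraries. Of 10 negative regulators, 7 were lower in IEL (median −0.48). Socs3, a relative of Socs1 named after its values were seen, was at 1709, 0.181 and 1493 FPKM in PA LP. In ND LP it was at 348, 981 and 239 FPKM. This split was not general in the list. Cish also had PA replicates 1 and 3 above all of ND LP. Ptpn1 did not, at 40.0, 24.2 and 48.2 FPKM in PA LP and 57.1, 57.2 and 26.0 FPKM in ND LP. For Pias1 all 3 PA LP libraries lay above ND LP.

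RNA of IFN-γ was hardly visible in the libraries. The gate was set to leave out cells with lineage markers, so these libraries do not describe the sources of IFN-γ in the tissue. The study's lineage panel for flow cytometry of gut cells held T cell receptors, CD8 and NK1.1. Ifng itself was listed at 0 in 9 of 12 libraries, and was at 22.2 FPKM in PA LP replicate 3 and at 14.2 and 28.2 FPKM in ND IEL replicates 1 and 3. Tbx21, the T-bet gene that drives it, was detected in the same 3 libraries, at 24.8, 10.3 and 8.42 FPKM. RNA of T and NK cells was present there too. The T cell gene Cd3g was at 87.8, 102 and 118 FPKM in them, and at most at 65.8 FPKM elsewhere. Of the 10 NK cell and ILC1 markers, 8, 8 and 7 were at 1 FPKM or more, against at most 5 in any other library. Which cells the Ifng RNA came from was not tested. Of 10 tested genes for sources and inducers of IFN-γ, 4 were higher in PA in LP (median −0.04) and 4 in IEL (median −1.03). None was called, and the shares of all genes higher in PA were 37.4% in LP and 38.0% in IEL. Il12rb2, a chain of the IL-12 receptor, was at 0.0373, 0 and 0.0288 FPKM in PA IEL and 11.5, 10.2 and 12.2 FPKM in ND IEL (−3.59 ± 1.04, limma, adjusted p = 0.947). Of 20 type I interferon targets tested, 14 were lower in IEL than in LP (53.4% of all genes), with a median of −0.88 against −0.08 over all genes. Between the layers none of them was called, and 4 had an unadjusted p under 0.05 (13.4% of all genes). In LP their largest positive PA minus ND difference was that of Rsad2, an antiviral enzyme (3.82 ± 0.97, limma, adjusted p = 0.650).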

How the data were processed

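RNA-seq of 12 sorted ILC3 libraries (4 groups of 3) was used. Per the labels and the study's methods, libraries were made with SMART-Seq v4, a PCR-amplified cDNA protocol without molecular identifiers. Reads were aligned to mm10, and the submitters' processing notes name TopHat2 2.1.1, Bowtie2 2.2.8.0, SAMtools 0.1.18, Cufflinks 2.2.1 and Cuffdiff 2.2.1. The authors deposited FPKM values per gene, which were used for all levels and tests. A second deposited table holds a score, the authors' counts after division by a size factor and rounding. It was used to work out reads per library, which gave the depths, the floors of 3 reads and the limma-voom alternative (90.8 to 100% of low values fell within 0.05 of a whole number of steps). Floors of 3 reads cover counting error only. No count model was used for the main result.

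Log2(FPKM + 1) was fitted with limma 3.58.1 in R 4.3.3, with 4 group means, a mean-variance trend and Benjamini-Hochberg adjustment over 12502 genes (at least 1 FPKM in at least 3 libraries), with a threshold of 0.05. Fold changes on this scale understate those of low genes. The fit was tested on simulated data. Members and lists were chosen with earlier results of these data known. Genes named were the 9 members, list genes with an adjusted p under 0.05, the largest rises and falls of a list, the 10 genes most like the GTPase mean, and a few others chosen after their values were seen (Gbp4, Cxcl10, Psmb8, Jak1, Socs3, Tbx21, Plvap, Vwf, Emcn). Endothelial and fibroblast lists were added after the values were seen. Alternatives changed the pseudocount, filter, scaling (including on 30 genes common to leukocytes), weights, libraries, block and model. Same-numbered libraries did not deviate together (correlations of −0.12 to 0.07 across genes), and no source ties a number to a mouse. No protein sequences were used here, and some list genes are not reported here.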

Additional observations from a re-analysis of the deposited data

Results flagged for a closer look

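In IEL, Irgm1 in PA replicate 2 (0.0360 FPKM) stood apart from the other 5 libraries of the layer. Its gap to the next value was 0.823 of the whole range on the log2(FPKM + 1) scale. Igtp stood apart in the same library (0.0401 FPKM), with a gap of 0.723 of the range. Both values came from 1 read, under the level that 3 reads give. That library had 4390 genes at 1 FPKM or more, the fewest of the 12, and was the lowest of the 6 IEL libraries for 36.9% of all genes tested. Chance alone sets apart about 1 in 20 groups, and 18 sets of 6 libraries were looked at.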

How the results depend on the processing

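All values here are log2 differences or counts of calls at an adjusted p under 0.05. Over 814 refitted values of the 9 genes, 773 kept their direction, 41 changed it, 9 were newly called and 1 lost its call. That one was Iigp1 between the layers under limma-voom (−8.34, adjusted p = 0.501), and the cause was not tested. The upper-quartile scaling moved the median of all genes by −0.29 in IEL and −0.26 in LP, and scaling on leukocyte genes moved it by 0.20 in LP and 0.30 in the contrast of both diet effects.

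In IEL, 1 of 9 members was higher in PA under upper-quartile scaling, leukocyte scaling, limma-voom or the endothelial covariate (1 to 2 with a library left out). Ifngr1 was then at −0.480, −0.0584, −0.180 and −0.0263, and ranged from −0.22 to 0.40 with a library left out. Ifngr2 was at 0.12 with sample weights, and Tgtp1 with Tgtp2 added at 0.63. In IEL 0 to 1 genes were called with a library left out, the 1 without PA IEL replicate 3. In LP 3 genes were called with sample weights and 3 with limma-voom, and 0 to 8 with a library left out (8 without PA LP replicate 3, 1 without PA IEL replicate 3 or ND LP replicate 1).

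In LP, Irgm2 was at −0.10 with limma-voom and Iigp1 at −0.17 with upper-quartile scaling. Irf1 was at 0.26 with leukocyte scaling, 0.73 with weights, 0.0684 with limma-voom, 1.12 without the 2 libraries with the fewest genes and 0.68 with the covariate. Socs1 was at 0.0250, 0.830, 1.79 and 1.025 with leukocyte scaling, weights, without those libraries and with the covariate. With a library left out, Iigp1 ranged from −0.52 to 1.68, Irf1 from −0.82 to 1.12 and Socs1 from −1.47 to 1.79. For the difference between the layers, Ifngr2 was at −1.10, −1.13 and −0.23 and Socs1 at 0.0686, 1.17 and 0.339 with weights, without those libraries and with the covariate, and they ranged from −0.62 to 0.73 and −2.58 to 0.68 with a library left out.

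Between the layers, 58 genes were called with a pseudocount of 0.1, 30 without a filter, 982 with weights, 826 without the 2 libraries with the fewest genes and 282 with the covariate, under which 6 of 9 members were higher in IEL. With a library left out it was 37 to 521 (250 without PA IEL replicate 2, 521 without PA LP replicate 2, 37 to 69 without another that moved it by over 1.5 times). With the covariate Irgm2 was at 0.43, Igtp at 0.26 and Irf1 at 0.11, and without those 2 libraries Socs1 was at −0.0848.

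The replicate block called 3 genes in LP and 29 between the layers, where Iigp1 kept its call (adjusted p = 0.02002). It changed the direction of no member. Whether IEL and LP libraries with the same label came from 1 mouse is not known, and the low correlations between them cannot exclude it. The 2 libraries with the fewest genes, PA IEL replicate 2 and PA LP replicate 2, share a label. Depth limited the values at or under 3 reads, those of Irgm2 in 4 libraries, Tgtp1 in 3 and Irgm1, Igtp, Iigp1 and Socs1 in 1 each, which cannot be told from 0.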
